A study of Rattus with 6 samples.

Results

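The aryl hydrocarbon receptor genes described here are 6 genes chosen by name, namely the receptor gene Ahr, its partner gene Arnt, the repressor gene Ahrr, and 3 further targets of the receptor, Cyp1a1, Cyp1b1 and Tiparp. All 6 were found among the 16690 genes of the table. Levels are given in FPKM, fragments scaled for gene length and for library depth, and 5 of the 6 genes passed the filter for testing of at least 1 FPKM in at least 3 libraries. Expression was measured by poly-A RNA sequencing in cultured bone marrow mesenchymal stem cells (BMSCs), the adherent stromal cells of the marrow, of Sprague Dawley rats. There were 3 libraries of cells from rats in which chronic kidney disease (CKD) was modelled, and 3 libraries of cells from healthy control rats. Every library carries the label wild-type, and the labels used here give neither the way CKD was induced nor the age or sex of the rats.

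The aryl hydrocarbon receptor is a transcription factor of the bHLH-PAS family that is switched on by small aromatic ligands. Without a ligand it rests in the cytoplasm with heat shock chaperones. With one, it enters the nucleus, pairs with ARNT and activates genes such as those of the CYP1 enzymes, while AHRR and TIPARP act back on the receptor and dampen it. Indoxyl sulfate and other tryptophan products of gut bacteria are cleared by the kidney, build up in kidney failure and are known ligands of the receptor, which is why it is described as a sensor of uraemic toxins. The cells had been grown in culture medium before RNA was taken, and no ligand or toxin was measured in the files used here.

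Some facts of the libraries bear on every comparison below. Depth, recovered from the table, was between 34404037 and 46892613 fragments per library. One protocol label names exosomes as the source of RNA, whereas the titles name cells, which is the reading used here. In CKD replicate 1 and control replicate 2 the disease model tag names the opposite group from the title and the column name, which set the groups here. All 11 stromal markers were detected in every library, at unequal levels. Itgb1 lay between 847 and 1204 FPKM, while Nt5e was at 8.79 and 8.53 FPKM in the first CKD and the first control library. None of the 11 passed the test, and 4 had an unadjusted p under 0.05, against 22.1% of all tested genes. The authors' deposited table gives 4 of the 11 a q-value under 0.05, against 11.3% of all its genes. These were Cd44 (0.0045), Dcn (0.00532), Thy1 (0.0417) and Eng (0.0453). Dcn, the decorin gene, averaged 256 ± 48.9 FPKM in CKD libraries and 38.7 ± 42.2 FPKM in control libraries (limma adjusted p = 0.0985), with 9.15 FPKM in control replicate 3. Cd44 averaged 84.8 ± 10.1 FPKM in CKD libraries and 59.98 ± 2.93 FPKM in control libraries, Thy1 averaged 540 ± 33.8 FPKM in CKD libraries and 728 ± 119 FPKM in control libraries, and Eng averaged 17.7 ± 5.99 FPKM in CKD libraries and 61.3 ± 43.0 FPKM in control libraries (limma adjusted p = 0.0912, 0.183 and 0.370). None of the 6 endothelial genes reached the filter, which asks for 3 libraries. Tie1 was at 2.48 and 2.31 FPKM in CKD replicates 2 and 3. Tek was at 2.25 and 2.31 FPKM in control replicates 2 and 3, and lower in every CKD library (q-value 0.000516 in the authors' deposited table). The other endothelial genes stayed under 1 FPKM in every library. Of 15 genes of haematopoietic cells and macrophages, all 15 had a row and 13 were tested. Their summed level was 291, 3224 and 2159 FPKM in CKD replicates 1, 2 and 3, against 390, 21.6 and 14.0 FPKM in control replicates 1, 2 and 3, where Adgre1 and C1qb were at 0 in control replicate 3. By this sum CKD replicates 2 and 3 stood far above the first library of either group, and control replicates 2 and 3 stood far below both. Lyz2, a lysozyme gene with the lowest p of the list, averaged 1309 ± 1006 FPKM in CKD libraries and 94.4 ± 153 FPKM in control libraries (limma adjusted p = 0.159), and none of the 13 passed. All 13 were positive in log2 fold change (59.4% of all tested genes), with a median of 3.35. An unadjusted p under 0.05 was found for 9 of the 13, against 22.1% of all tested genes. The authors' deposited table gives 4 of the 15 a q-value under 0.05, against 11.3% of all its genes. All 10 proliferation genes were higher in CKD, with a median log2 fold change of 1.44, and Plk1, Aurka, Mcm3, Mcm2, Top2a, Bub1 and Cdk1 passed the test (limma, adjusted p between 0.0297 and 0.0462), though limma-voom called 3 of the 10. Of all tested genes, 2.07% passed the test and limma-voom called 0.912%. None of the 10 was called if replicate 2 or replicate 3 of either group was dropped, with groups by the disease model tag, or after adjustment for the mean of the haematopoietic genes, while the list median lay between 0.73 and 1.49 in these fits. Such fits called at most 0.160% of all tested genes. In bulk RNA, a change in the number of cells of a type and a change in RNA per cell cannot be told apart. The mean of the haematopoietic genes was itself higher in CKD. No fit below that is adjusted for it can therefore separate other cells from the group.

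None of the 5 tested receptor genes passed the test between CKD and control at an adjusted p of 0.05 (limma on log2(FPKM + 1), n = 3 each), and 2 of them, Ahr and Cyp1b1, had an unadjusted p under 0.05. Over all 10638 tested genes, 2.07% passed and 22.1% had an unadjusted p under that level. On the fragment counts recovered from the table, limma-voom also called 0 of the 5 and 0.912% of all tested genes. When each library was weighted by its quality, limma-voom called 3 of the 5 (Ahr, Ahrr and Cyp1b1) and 56.0% of all tested genes. Of the 6 genes 1, Ahr, had a q-value under 0.05 in the authors' deposited table, against 11.3% of all its genes. Ahr and Cyp1b1 were higher in every CKD library than in every control library, and Tiparp was lower. Groups without overlap were found for 27.8% of all tested genes, of which 18.3% were higher and 9.59% lower in CKD, as shares of all tested genes.

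**Figure D1:**
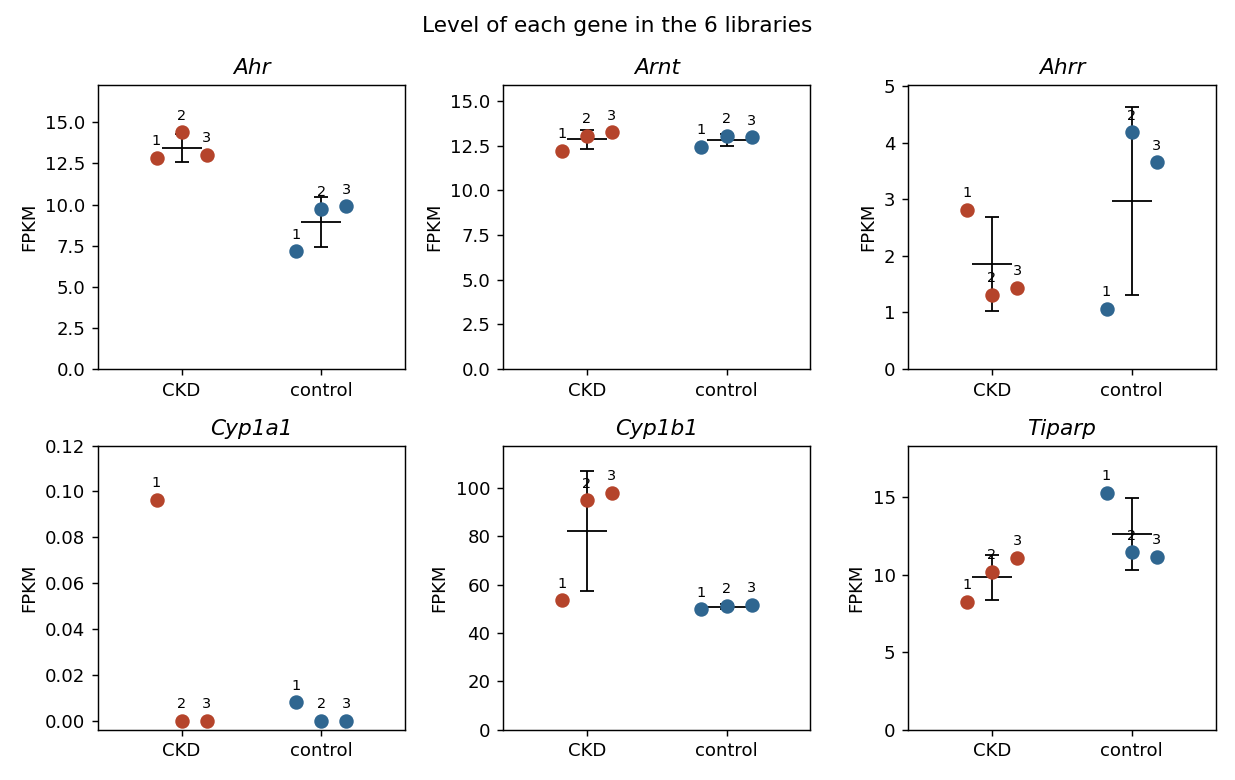
Level in FPKM (vertical axis, linear, from 0, or just below it for Cyp1a1) of each gene in the 3 CKD libraries (red, left) and the 3 control libraries (blue, right), with the replicate number beside each point. Bars give the mean ± SD of each group, left out for Cyp1a1, which was at 0 in 4 of the 6 libraries.

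Ahr (NCBI Gene 25690) encodes the receptor itself. It reached 12.8, 14.4 and 13.0 FPKM in CKD replicates 1, 2 and 3, against 7.16, 9.73 and 9.88 FPKM in control replicates 1, 2 and 3. The lowest CKD library lay 2.95 FPKM above the highest control library, and control replicate 1 was the lowest of all. The mean was 13.4 ± 0.853 FPKM in CKD and 8.92 ± 1.53 FPKM in control libraries (SD, n = 3 each), 1.5 times as high. On the log2(FPKM + 1) scale the difference was 0.55 ± 0.13 (SE; 95% interval 0.22 to 0.88), with a limma adjusted p of 0.102. For Ahr, the authors' deposited table lists 0.51 as log2 fold change, at a q-value of 0.0338. Between 1736 and 2901 fragments per library stood behind these values, so counting error was small beside the spread between libraries.

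The Ahr difference was present in the first libraries and in the others. CKD replicate 1 stood 1.79 times as high as control replicate 1, and the mean of CKD replicates 2 and 3 was 1.40 times that of control replicates 2 and 3. Without both first libraries the log2 fold change was 0.44 ± 0.07 (limma adjusted p = 0.00154, in a fit that called 55.0% of all tested genes). Without control replicate 1 alone it was 0.41 ± 0.08 (limma adjusted p = 0.0395, where 12.0% of all tested genes were called). It was positive in each of the 17 alternative fits, between 0.31 with groups by the disease model tag and 0.68 after adjustment for the mean of the haematopoietic genes. Adjusted p-values over these fits ran from 0.00154 to 0.712 (limma).

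Arnt (NCBI Gene 25242) encodes the partner with which the receptor binds DNA, and the partner of hypoxia-inducible factors as well. It was the steadiest of the 6 genes. Its level was 12.2, 13.1 and 13.3 FPKM in CKD replicates 1, 2 and 3, against 12.4, 13.1 and 13.0 FPKM in control replicates 1, 2 and 3. The groups overlapped throughout, and the highest library was 1.08 times the lowest. Means were 12.9 ± 0.548 FPKM in CKD and 12.8 ± 0.344 FPKM in control libraries (SD, n = 3 each). The log2 fold change was 0.0028 ± 0.067 (SE; limma adjusted p = 0.986), with a 95% interval of -0.16 to 0.17, and its sign turned with the scaling of libraries.

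Ahr and Arnt can be compared with each other because FPKM is scaled for length. The ratio of Ahr to Arnt was 1.05, 1.10 and 0.982 in CKD replicates 1, 2 and 3, against 0.576, 0.744 and 0.762 in control replicates 1, 2 and 3. The receptor transcript was thus about level with that of its partner in CKD libraries, and lower than it in each control library. The difference of the log2 ratio between the groups was 0.60, with an exact two-sided permutation p of 0.1, the smallest that 3 against 3 libraries can give. Of 4 such ratios, chosen after the values had been seen, none could pass, with an adjusted p of 0.2 for this one (exact permutation, Benjamini-Hochberg over 4). The groups lay further apart in Ahr than the 1.08 times by which Arnt varied, so this ratio had to separate them. The p of the ratio therefore adds nothing to the Ahr values.

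Ahrr (NCBI Gene 498999) encodes a repressor that resembles the receptor, competes for ARNT and is itself induced by the receptor. It varied most among the tested genes of the set, 3.92 times between the highest and the lowest library. It reached 2.81, 1.31 and 1.43 FPKM in CKD replicates 1, 2 and 3, against 1.07, 4.18 and 3.66 FPKM in control replicates 1, 2 and 3. The groups overlapped, since CKD replicate 1 was above the other CKD libraries and control replicate 1 was the lowest of all 6. Means were 1.85 ± 0.833 FPKM in CKD and 2.97 ± 1.67 FPKM in control libraries (SD, n = 3 each), with a log2 fold change of -0.41 ± 0.40 (SE; limma adjusted p = 0.586). With 1 library left out it ranged between -0.82 when control replicate 1 was dropped and -0.16 when control replicate 2 was, and no such fit called it. Between 211 and 820 fragments per library were behind these values.

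For Ahrr the first libraries ran the other way from the rest. CKD replicate 1 was 2.63 times control replicate 1, while the mean of CKD replicates 2 and 3 was 0.350 times that of control replicates 2 and 3. Without both first libraries the log2 fold change was -1.05 ± 0.09 (limma adjusted p = 8.75e-05, with 55.0% of all tested genes called), and with libraries weighted by quality it was -1.41 ± 0.26 (limma-voom adjusted p = 0.00417, with 56.0% called). After adjustment for the mean of the haematopoietic genes it was 0.58 ± 0.29 (limma adjusted p = 0.558). The ratio of Ahrr to Ahr was 0.219, 0.0907 and 0.11 in CKD replicates 1, 2 and 3, against 0.149, 0.430 and 0.370 in control replicates 1, 2 and 3. These ratios overlapped between the groups as well (exact two-sided permutation p = 0.2, n = 3 each).

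Cyp1b1 (NCBI Gene 25426) encodes a CYP1 monooxygenase that acts on oestrogens and aromatic hydrocarbons and, unlike its relative CYP1A1, is made in many stromal cells without added ligand. It was by far the most abundant of the 6 genes, at 53.5, 94.8 and 97.8 FPKM in CKD replicates 1, 2 and 3, against 49.7, 51.2 and 51.7 FPKM in control replicates 1, 2 and 3. The 3 controls lay close together, CKD replicates 2 and 3 lay well above them, and CKD replicate 1 lay only 1.80 FPKM above the highest control. Means were 82.0 ± 24.8 FPKM in CKD and 50.9 ± 1.01 FPKM in control libraries (SD, n = 3 each), 1.61 times as high. The log2 fold change was 0.63 ± 0.24 (SE; 95% interval 0.036 to 1.2), with an unadjusted p of 0.0409 and an adjusted p of 0.207 (limma). In the authors' deposited table the q-value of Cyp1b1 was 0.0959.

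The Cyp1b1 difference lay in CKD replicates 2 and 3, whose mean was 1.87 times that of control replicates 2 and 3, while CKD replicate 1 was 1.08 times control replicate 1. Without CKD replicate 1 the log2 fold change was 0.91 ± 0.06 (limma adjusted p = 0.00591, with 15.1% of all tested genes called). Without both libraries with conflicting tags it was 0.91 ± 0.09 (limma adjusted p = 0.0415, with 2.80% called). CKD replicates 2 and 3 are also the libraries with the highest summed level of the haematopoietic and macrophage genes, at 3224 and 2159 FPKM, most of it from Lyz2. With the mean of that list as a covariate, the Cyp1b1 difference was 0.16 ± 0.28 (limma adjusted p = 0.905). All 13 genes of that mean were themselves higher in CKD, so this fit cannot separate other cells from the group. The part of other cells in the Cyp1b1 values was not tested.

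Cyp1a1 (NCBI Gene 24296), the most inducible target of the receptor in liver and many other tissues, was close to the limit of the measurement. It had 10, 0 and 0 fragments in CKD replicates 1, 2 and 3, against 1, 0 and 0 in control replicates 1, 2 and 3. In 4 of the 6 libraries there was thus no fragment, which allows a level of up to 0.0259 to 0.0324 FPKM in those libraries (3 fragments per library). The 10 fragments of CKD replicate 1 correspond to 0.0964 FPKM, with an exact Poisson 95% interval of 0.0462 to 0.177 FPKM that covers counting error only. Cyp1a1 did not pass the filter and was not tested in the main comparison. In the authors' deposited table it has a fold change of 10.0 with a q-value of 0.683, and that fold rests on 11 fragments over all libraries. In each library Cyp1b1 therefore stood far above Cyp1a1.

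Tiparp (NCBI Gene 310467) encodes a mono-ADP-ribosyltransferase that is induced by the receptor, modifies it and limits its activity. It was at 8.24, 10.2 and 11.1 FPKM in CKD replicates 1, 2 and 3, against 15.3, 11.4 and 11.1 FPKM in control replicates 1, 2 and 3. Every CKD library was below every control library, but the closest pair differed by 0.0398 FPKM, less than the counting error of either of them (0.246 FPKM in CKD replicate 3 and 0.262 FPKM in control replicate 3). Means were 9.84 ± 1.46 FPKM in CKD and 12.6 ± 2.30 FPKM in control libraries (SD, n = 3 each), and the log2 fold change was -0.32 ± 0.16 (SE; limma adjusted p = 0.295). Here most of the difference lay in the first libraries. CKD replicate 1 was 0.540 times control replicate 1, the mean of CKD replicates 2 and 3 was 0.943 times that of control replicates 2 and 3, and without both first libraries the log2 fold change was -0.079 ± 0.065 (limma adjusted p = 0.338). With all libraries and adjustment for the mean of the haematopoietic genes it was larger, at -0.70 ± 0.12 (limma adjusted p = 0.160).

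By mean level over the libraries, Cyp1b1 ranked 948 of 16690 genes, Arnt 3944, Tiparp 4327, Ahr 4345, Ahrr 8940 and Cyp1a1 16055. The order of the middle genes differed between the groups. Ahr stood above Tiparp in all CKD libraries, with ratios of 1.56, 1.41 and 1.2, and below it in all controls, with ratios of 0.469, 0.850 and 0.888 (exact two-sided permutation p = 0.1, the smallest possible, adjusted p = 0.2, n = 3 each). As Ahr was higher and Tiparp lower in every CKD library than in every control library, this ratio had to separate the groups. Its p therefore adds nothing to the values of the 2 genes. Neighbours that did not differ beyond their spread were Ahr and Arnt in CKD and Arnt and Tiparp in control. The ratio of Cyp1b1 to Ahr was 4.17, 6.58 and 7.51 in CKD libraries, against 6.95, 5.26 and 5.23 in control libraries, with groups that overlapped (exact two-sided permutation p = 1, n = 3 each).

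**Figure D2:**
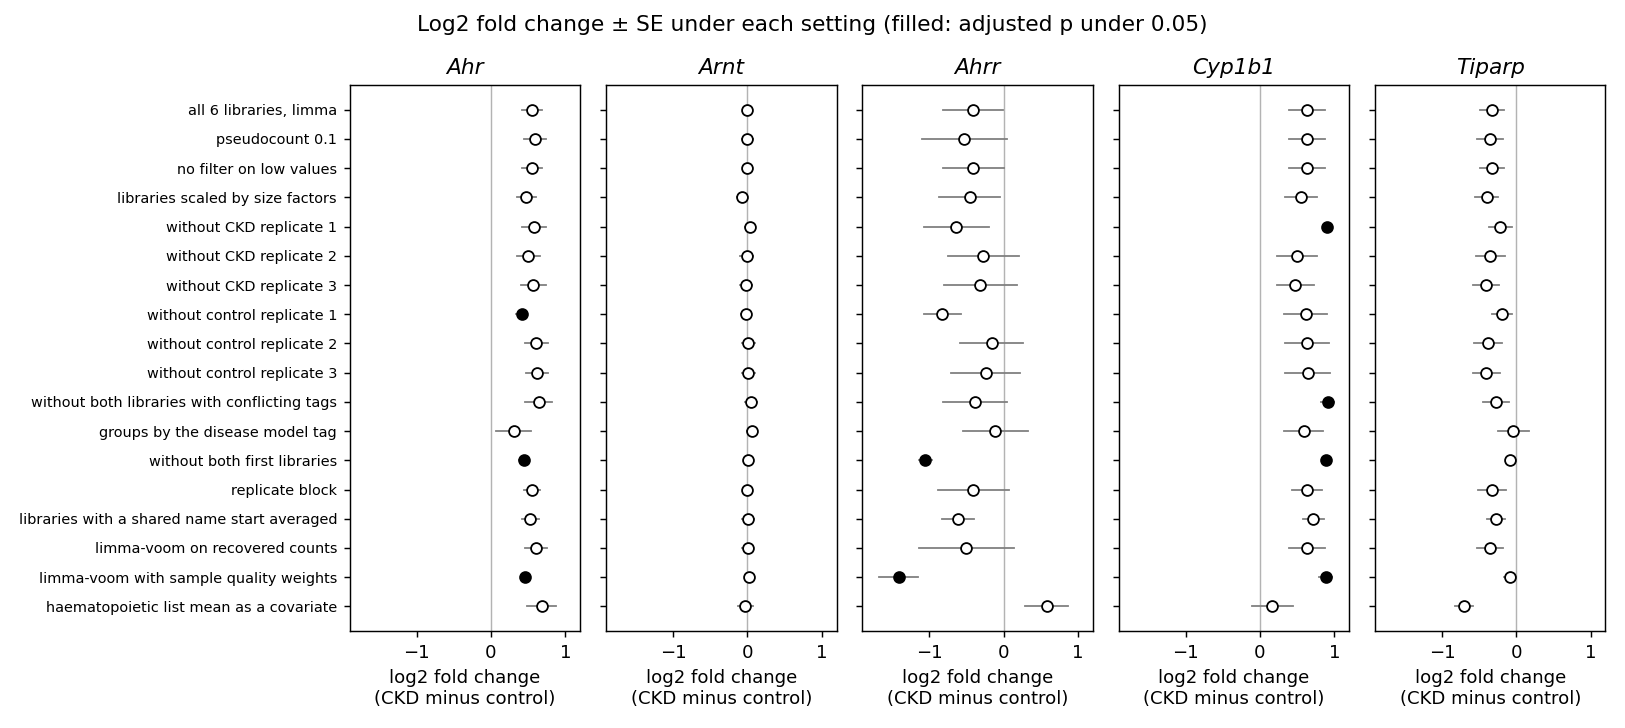
Log2 fold change (CKD minus control, horizontal axis) of the 5 tested genes with the SE as a line, under the main fit and 17 alternatives down the page. Filled points have an adjusted p under 0.05, which 3 alternatives gave for Ahr, 2 for Ahrr, 4 for Cyp1b1 and none for Arnt or Tiparp. The alternatives with a filled point called between 2.80% and 56.0% of all tested genes.

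The genes whose profiles over the 6 libraries were most like those of the receptor genes were found by the root mean square difference of centred log2(FPKM + 1) values. For Ahr these were Cenpp, a centromere protein gene (0.046), Arhgef26, which encodes a guanine nucleotide exchange factor (0.064), and Mrps6, of the mitochondrial ribosome (0.069), against a median of 0.33 over all tested genes. For Ahrr they were Irag1 (0.074), LOC100910081 (0.081) and the interferon-induced gene Ifit2 (0.10), against a median of 0.57. Ifit2 reached 13.8, 9.57 and 8.5 FPKM in CKD libraries, against 6.77, 18.1 and 17.4 FPKM in controls, with control replicate 1 the lowest and CKD replicate 1 the highest of its group, as for Ahrr. For Cyp1b1 they were Haus7, of the augmin complex of the spindle (0.052), Ppp1cc, a catalytic subunit of protein phosphatase (0.052), and Egln1, a prolyl hydroxylase that marks hypoxia-inducible factor for destruction (0.061), against a median of 0.42. For Tiparp they were Arl4a, a small GTPase gene (0.063), and Lysmd3 (0.074), against a median of 0.31. For Arnt, Golga4 (0.012), Arih2 (0.015) and Mtor (0.015) came closest, against a median of 0.17, and all of them were as flat as Arnt itself. These likenesses rest on 6 libraries and describe them only. Cenpp was at 1.37, 1.69 and 1.31 FPKM in CKD libraries, against 0.447, 0.829 and 0.761 FPKM in control libraries, and both Cenpp and Arhgef26 reached the filter of 1 FPKM in CKD libraries alone. The added 1 FPKM narrows the log2 differences of such low genes more than those of Ahr, so that their place beside Ahr depends on this scale.

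**Figure D3:**
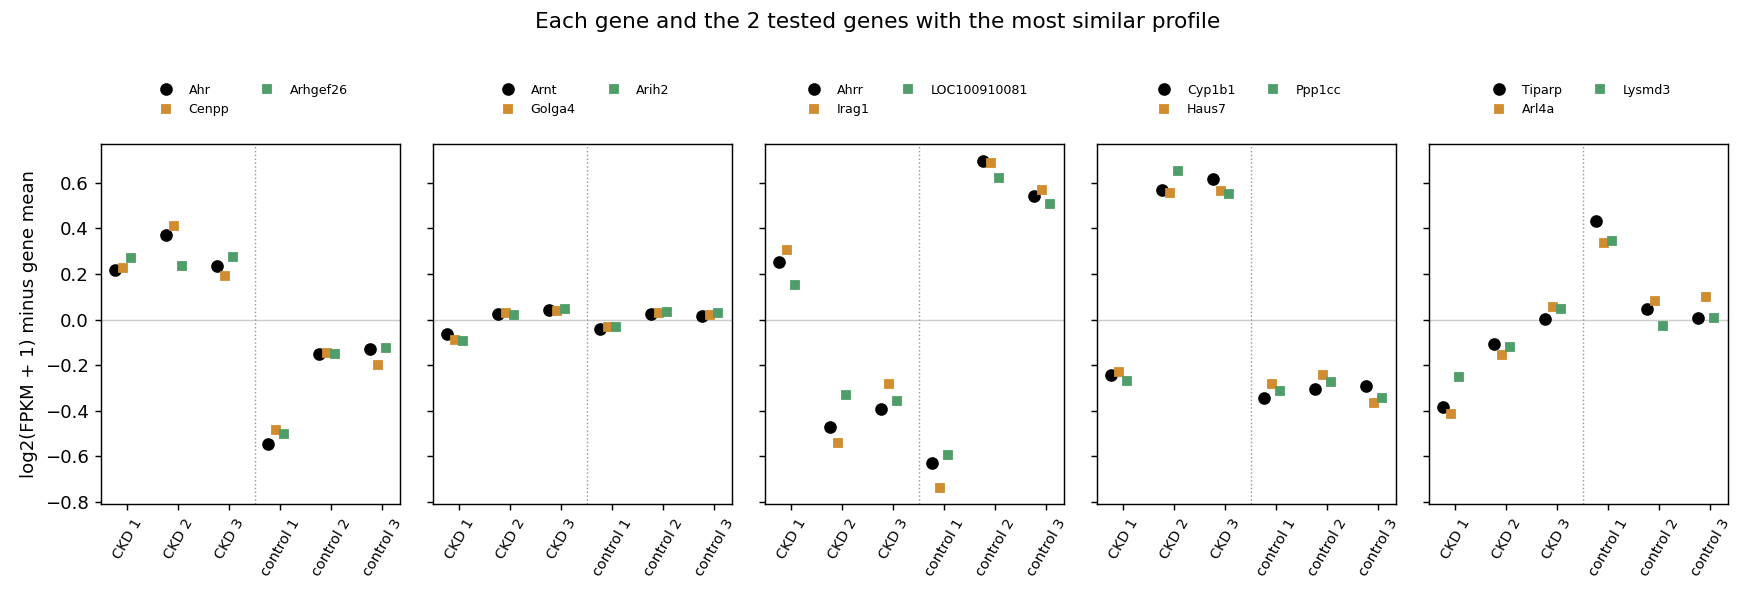
Level of each tested gene (black) and of the 2 genes with the most similar profile (coloured squares) in each library, as log2(FPKM + 1) minus the gene's own mean, with CKD libraries left of the dotted line and control libraries right of it. Cyp1b1 and its neighbours were high in CKD replicates 2 and 3, and Ahrr and its neighbours were high in control replicates 2 and 3.

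The receptor's chaperones were abundant in both groups. All 5 genes of the complex were tested, 4 were positive in log2 fold change, 2 had an unadjusted p under 0.05 and none passed the test (0 in limma-voom, 3 with quality weights). Over all tested genes, beside which this list and those below stand, 22.1% had an unadjusted p under 0.05 and 2.07% passed. Limma-voom called 0.912% of them, and 56.0% with quality weights. The list's median was 0.084, against 0.053 over all tested genes, of which 59.4% were positive. Ptges3, which encodes the small co-chaperone of the complex, averaged 151 ± 8.82 FPKM in CKD libraries and 121 ± 6.13 FPKM in control libraries, without overlap (log2 fold change 0.32 ± 0.08, limma adjusted p = 0.113; q-value 0.0290 in the authors' deposited table). Hsp90aa1, a heat shock chaperone gene, averaged 208 ± 10.6 FPKM in CKD libraries and 179 ± 7.39 FPKM in control libraries (limma adjusted p = 0.207). The list's median was 0.0031 with libraries scaled by size factors, and between 0.055 when CKD replicate 3 was dropped and 0.14 when control replicate 1 was, with 1 library left out.

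Of 10 relatives of the bHLH-PAS family, 8 had a row, 6 were tested and none passed. An unadjusted p under 0.05 was found for 2 (22.1% of all tested genes), and 0 were called in limma-voom. With quality weights 5 were called (56.0% of all tested genes). The list had 5 positive log2 fold changes and a median of 0.51. That median was 0.20 without control replicate 1 and 0.32 without CKD replicate 2. Epas1, which encodes a hypoxia-inducible factor that pairs with ARNT, had the largest difference, at 2.16, 18.8 and 19.6 FPKM in CKD replicates 1, 2 and 3, against 1.04, 1.04 and 1.06 FPKM in control replicates 1, 2 and 3. Like Cyp1b1, it was high in CKD replicates 2 and 3 and lay close to the controls in CKD replicate 1. Its log2 fold change was 2.41 ± 0.74 (limma adjusted p = 0.148), and 0.85 ± 0.79 after adjustment for the haematopoietic mean (limma adjusted p = 0.787), and the authors' deposited table lists a q-value of 8.91e-06. Bmal1, a clock factor, averaged 4.87 ± 0.506 FPKM in CKD libraries and 6.71 ± 1.01 FPKM in control libraries, without overlap (limma adjusted p = 0.153; q-value 0.0467 in the authors' deposited table). Its partner gene Clock averaged 7.91 ± 0.654 FPKM in CKD libraries and 6.89 ± 0.164 FPKM in control libraries (limma adjusted p = 0.268).

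Among coregulators, 9 of 10 genes were tested and none passed. An unadjusted p under 0.05 was found for 1 (22.1% of all tested genes), and 0 were called in limma-voom. With quality weights 5 were called, near the share of 56.0% over all tested genes. There were 7 positive log2 fold changes. The median was 0.062 (0.00092 with libraries scaled by size factors, -0.041 after adjustment for the haematopoietic mean). With 1 library left out it lay between 0.034 when control replicate 2 was dropped and 0.12 when the first library of either group was. Ncoa7, a nuclear receptor coactivator gene, averaged 3.18 ± 0.498 FPKM in CKD libraries and 2.22 ± 0.190 FPKM in control libraries, without overlap (log2 fold change 0.37 ± 0.11, limma adjusted p = 0.147). Ncoa3 averaged 5.02 ± 0.728 FPKM in CKD libraries and 4.10 ± 0.377 FPKM in control libraries, and the acetyltransferase gene Ep300 averaged 7.09 ± 0.70 FPKM in CKD libraries and 6.49 ± 0.122 FPKM in control libraries (limma adjusted p = 0.312 and 0.501).

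Of 12 other genes known as receptor targets, 8 had a row and were tested, and none passed (limma, 0 at an unadjusted p under 0.05, 0 in limma-voom, 1 with quality weights). Of all tested genes, 22.1% had such an unadjusted p and 56.0% were called with quality weights. For 6 of the 8 the log2 fold change was below 0. The median was -0.30, but 0.029 after adjustment for the mean of the haematopoietic genes and 0.074 with groups by the disease model tag. With 1 library left out it ranged between -0.57 when CKD replicate 3 was dropped and -0.078 when control replicate 3 was, and dropping control replicate 2 gave -0.13. Nqo1, a quinone reductase gene that NRF2 controls as well, reached 102, 43.9 and 55.4 FPKM in CKD replicates 1, 2 and 3, against 64.4, 205 and 188 FPKM in control replicates 1, 2 and 3. As for Ahrr, control replicates 2 and 3 were the highest, and CKD replicate 1 was above control replicate 1. Its log2 fold change was -1.10 ± 0.54 (limma adjusted p = 0.293), and 0.27 ± 0.31 after adjustment for the haematopoietic mean (limma adjusted p = 0.836). Gsta1, a glutathione transferase gene with close relatives whose fragments could be shared, averaged 55.5 ± 23.6 FPKM in CKD libraries and 84.4 ± 10.6 FPKM in control libraries, without overlap (limma adjusted p = 0.316). Unlike Nqo1, its log2 fold change moved further from 0 after that adjustment, from -0.70 ± 0.36 to -1.54 ± 0.29 (limma adjusted p = 0.189). Ereg, the gene of the growth factor epiregulin, averaged 0.718 ± 0.593 FPKM in CKD libraries and 1.99 ± 1.53 FPKM in control libraries (limma adjusted p = 0.464).

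Of 11 genes for enzymes of the route from tryptophan through kynurenine, itself a ligand of the receptor, 6 had a row and 2 were tested, without a call (limma; 0 at an unadjusted p under 0.05, 0 in limma-voom, 1 with quality weights). Kyat3, an aminotransferase gene that acts on kynurenine, averaged 2.31 ± 0.442 FPKM in CKD libraries and 1.74 ± 0.935 FPKM in control libraries (limma adjusted p = 0.490), and Kyat1 averaged 1.81 ± 0.0838 FPKM in CKD libraries and 1.86 ± 0.563 FPKM in control libraries (limma adjusted p = 0.985). Of 7 genes for the synthesis and transport of uraemic toxins 3 had a row and 2 were tested, without a call (limma, 0 at an unadjusted p under 0.05, 0 in limma-voom, 2 with quality weights). Beside both lists, the shares over all tested genes were 22.1% at an unadjusted p under 0.05 and 56.0% with quality weights. Sult1a1, a sulfotransferase gene whose human counterpart forms indoxyl sulfate, reached 3.31, 5.88 and 7.92 FPKM in CKD replicates 1, 2 and 3, against 2.90, 22.8 and 24 FPKM in control replicates 1, 2 and 3. The first libraries of both groups were the lowest of their groups, and the groups overlapped (limma adjusted p = 0.467). Abcc4, an efflux transporter gene, averaged 4.09 ± 0.576 FPKM in CKD libraries and 3.56 ± 1.38 FPKM in control libraries (limma adjusted p = 0.647).

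Genes reported to answer indoxyl sulfate in cells of the vessel wall gave no common direction. Of 6, 5 were tested and none passed. An unadjusted p under 0.05 was found for 2 (22.1% of all tested genes), and 0 were called in limma-voom. With quality weights 5 were called (56.0% of all tested genes). The list had 3 positive and 2 negative log2 fold changes and a median of 1.16. That median was 0.67 without control replicate 1 and 0.34 after adjustment for the mean of the haematopoietic genes. Vcam1, an adhesion molecule gene, reached 2.12, 8.78 and 6.94 FPKM in CKD replicates 1, 2 and 3, against 1.80, 0.829 and 1.56 FPKM in control replicates 1, 2 and 3 (log2 fold change 1.40 ± 0.45, limma adjusted p = 0.159; q-value 0.00605 in the authors' deposited table). Icam1, another adhesion molecule gene, averaged 22.3 ± 4.99 FPKM in CKD libraries and 40.8 ± 19.4 FPKM in control libraries (limma adjusted p = 0.374). Vcam1 was highest in the 2 libraries with the most haematopoietic and macrophage RNA. After adjustment for the mean of the haematopoietic genes its log2 fold change was 0.34 ± 0.38 (limma adjusted p = 0.833). That mean was itself higher in CKD, so the fit cannot separate other cells from the group, and their part was not tested.

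**Figure D4:**
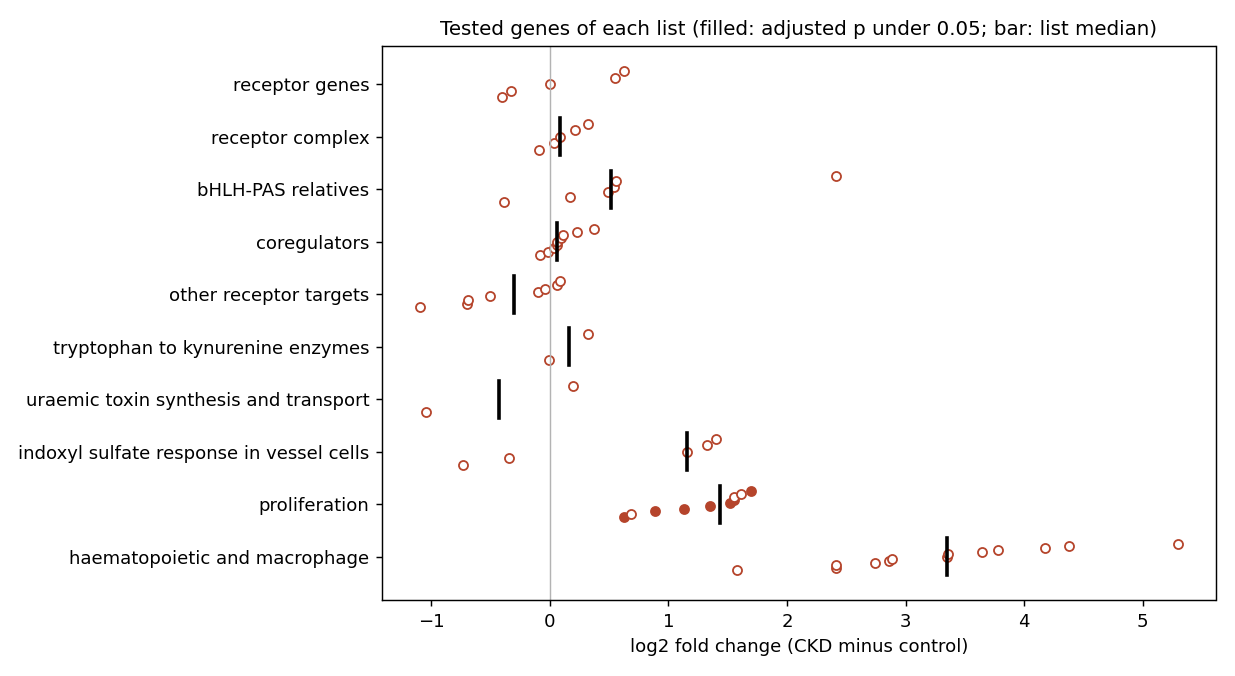
Log2 fold change (CKD minus control, horizontal axis) of every tested gene of each list except the stromal markers, which are not drawn. The list median is a black bar, left out for the receptor genes. Filled points, which passed the test at an adjusted p of 0.05, occur in the proliferation list, where 7 of 10 genes passed, and in no other list. Of all tested genes 2.07% passed.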

How the data were processed

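The authors deposited a single table, written with decimal commas. Per the file headers it holds FPKM by gene and library, mean normalized counts by group, the ratio (fold change) of CKD over control with its log2, and the p-value and q-value of the authors' test. The submitters' processing notes name the build mRatBN7.2 and the tools HTSeq 0.11.2, HISAT2 2.1.0, DESeq2 1.22.2, DESeq 1.34.1, FastQC 0.11.9 and SAMtools 1.9, without order or settings. The lowest mean normalized count in the table was 1.03. A reference of another assembly was at hand, so no coordinates or sequences are given.

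Libraries were grouped by column name and title, and numbered by column name (CKD replicate 3 is numbered 4 in its title). Nothing ties each library to its own animal, so p-values measure the spread between libraries, which may be partly technical. CKD replicates 1 and 3 have names with a common beginning, as do control replicates 1 and 2, and whether such pairs share an animal is not stated. Fragment counts were recovered from the FPKM values and group means, and 100% of 100140 values came out whole within 0.01. They served for depth, counting error and limma-voom.

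The 2 groups were compared on the log2(FPKM + 1) scale with limma 3.58.1 in R 4.3.3. The model had a mean-variance trend and no covariate, tests were moderated and two-sided, and p-values were adjusted (Benjamini-Hochberg) over the 10638 genes that reached 1 FPKM in 3 or more libraries. This scale understates the change of low genes. Intervals of log2 fold changes come from the limma fit and reflect the spread between libraries. The exact Poisson interval, the limits for libraries without a fragment and the counting errors cover counting error only. Counts of fragments carry no molecular identifiers. Ratios of 2 genes were compared by exact permutation. The fit was also run on simulated counts of independent libraries. These lacked the differences between first and later libraries seen here, so that run does not show how the fit does on these data. The 17 alternatives changed the pseudocount, filter, scaling, grouping, libraries or model. Named genes were the 6 receptor genes, the called genes of each list or else those with the lowest p, and the 3 nearest profiles, of which some are not reported here. Members and lists were chosen with earlier results of these data known. The gene ratios and the examples Itgb1, Nt5e, Eng, Tie1 and Tek were picked after values had been seen.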

Additional observations from a re-analysis of the deposited data

How the results depend on the processing

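Ahr, Cyp1b1 and Tiparp kept their sign in all 17 alternatives, Ahrr in 16 and Arnt in 12. Arnt, at 0.0028 with all libraries, was -0.073 with libraries scaled by size factors and -0.025 after adjustment for the mean of the haematopoietic genes, and between -0.018 and 0.036 with 1 library left out. Ahrr was 0.58 and Tiparp -0.70 with that adjustment. No receptor gene was called in the fit given in the report, and some were called elsewhere (limma). Without 1 library the log2 fold change was 0.41 to 0.62 for Ahr, called without control replicate 1 (with 12.0% of all tested genes), and 0.48 to 0.91 for Cyp1b1, called without CKD replicate 1 (with 15.1%). It was -0.82 to -0.16 for Ahrr and -0.41 to -0.19 for Tiparp, without a call. Without both libraries with conflicting tags Cyp1b1 was called at 0.91, with 2.80% of all tested genes. Without both first libraries Ahr (0.44), Ahrr (-1.05) and Cyp1b1 (0.89) were called, with 55.0% of all tested genes. With libraries weighted by quality the same 3 were called (0.46, -1.41 and 0.89), with 56.0% of all tested genes.

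The number of all genes called was 142 higher and 78 lower in CKD. Without 1 library it was between 1 and 1139 higher and between 5 and 546 lower. It was 81 higher without a filter, 237 higher without the libraries with conflicting tags, 0 and 0 with groups by the tag, 3689 and 2162 without both first libraries, 55 and 42 in limma-voom, 3779 and 2174 with libraries weighted by quality, and 6 and 11 with the adjustment for haematopoietic genes. With the replicate number as a replicate block it was 60 and 28, and no receptor gene was called. The numbers do not pair the libraries by design, and the library with column number 3 in CKD has the number 4 in its title. Same-numbered libraries deviated with correlations of 0.036, -0.031 and 0.11. Of 136 list medians (8 lists, 17 alternatives), 17 moved by more than the spread between libraries, the SD within groups of the list's median level. Differences between first and later libraries are part of that spread, so the count does not show that the lists are stable. The indoxyl sulfate list, at 1.16 and then 0.34 with the adjustment for haematopoietic genes, was not counted as moved. Lists with fewer than 3 tested genes were left out. The causes of these changes were not tested. Depth limits Cyp1a1, at 11 fragments in all.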
